A study of Mus musculus with 6 samples.

Results

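The calponins and smooth muscle contractile genes were examined in mouse heart ventricles as 9 genes chosen by symbol, Cnn1, Cnn2, Cnn3, Tagln, Tagln2, Acta2, Myh11, Myl9 and Smtn. All 9 were found among the 24062 gene symbols of the count table, and all 9 passed the filter on low counts that left 13629 genes for testing. RNA-seq was done on total RNA from both ventricles of male mice at postnatal day 1, strain C57/Bl6N. The 3 control libraries came from mice labelled Control (CreNEG), and the 3 others from mice labelled Med12cKO (CrePOS), a heart-restricted knockout of the Mediator subunit gene Med12. The sources used here do not give the Cre driver, the Med12 allele of the control mice or the animal behind each library. Only the Med12cKO mice carried Cre, so Cre itself and loss of Med12 cannot be told apart. The choice of these genes drew on the difference between the same 6 libraries, above all on the high Cnn1 level in Med12cKO. Their differences between the groups are therefore given as a description, and the p-values printed for them support nothing further.

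Smooth muscle cells contract when myosin built from the heavy chain Myh11 pulls on filaments of the actin Acta2. Phosphorylation of the regulatory light chain Myl9 switches that myosin on, while calponins, transgelins and smoothelin bind along the actin filaments. In a heart these genes are known from the smooth muscle of coronary vessels and, for some of them, from pericytes, activated fibroblasts and immature cardiomyocytes. Many of them are classic targets of the serum response factor SRF, which binds a DNA element called the CArG box. In RNA from whole ventricles, a change in the number of cells of one type and a change in RNA per cell cannot be told apart.

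Depth ran from 8453346 to 10911698 counts per library. Values are in CPM, the counts after TMM scaling for library size and composition, and a group is summarised by its mean ± SD (n = 3). Med12 lay between 103 and 176 CPM in the controls and between 41.3 and 85.0 CPM in Med12cKO, without overlap (log2 fold change −1.06, SE 0.30; adjusted p = 0.765 in edgeR and 0.0246 in DESeq2). Control replicate 3 and Med12cKO replicate 1 stood apart from the rest by thymus and T cell transcripts, with 12 marker genes summing to 829.8 and 837 CPM against 3.43 to 5.52 CPM in the other 4 libraries. Med12cKO replicates 2 and 3 differed in transcript length. Genes with an average log2 CPM of at least 3 were ranked by exon length. In replicate 2 the 2586 longest (at least 7.185 kb) had a median log2 deviation of 0.16 from the mean of the 6 libraries, and the 2585 shortest −0.147. In replicate 3 these medians were −0.139 and 0.196, and in control replicate 1 they were −0.067 and 0.087. Control replicate 2 had medians of 0.076 and −0.064. Med12, with 7.704 kb of exon, is itself among the longest genes, and the part of transcript length in its level was not tested. A gene model on the same strand, Gm21986, shares 9.72% of the exon bases of Med12.

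Of the 9 genes, 8 had a positive log2 fold change (52.2% of all genes tested), with a median of 0.52 against 0.01 over all genes. Cnn1 was the gene of the group with an adjusted p under 0.05 in edgeR (1 of 9; 0.022% of all genes tested in either direction and 0.00734% higher). At an unadjusted p under 0.05 there were 5 of 9, all higher in Med12cKO, against 3.78% of all genes in either direction, 2.16% higher and 1.61% lower. Cnn1, Cnn2 and Myl9 had every Med12cKO library above every control, which makes 3 of 9 against 8.23% of all genes without overlap in either direction and 4.59% higher. Since the choice of genes used this contrast, nothing is read from these counts. Just inside the adjusted threshold of 0.05 stood Cnn1 at 0.0464, and the next of the 9 genes was Myl9 at 0.751.

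**Figure D1:**
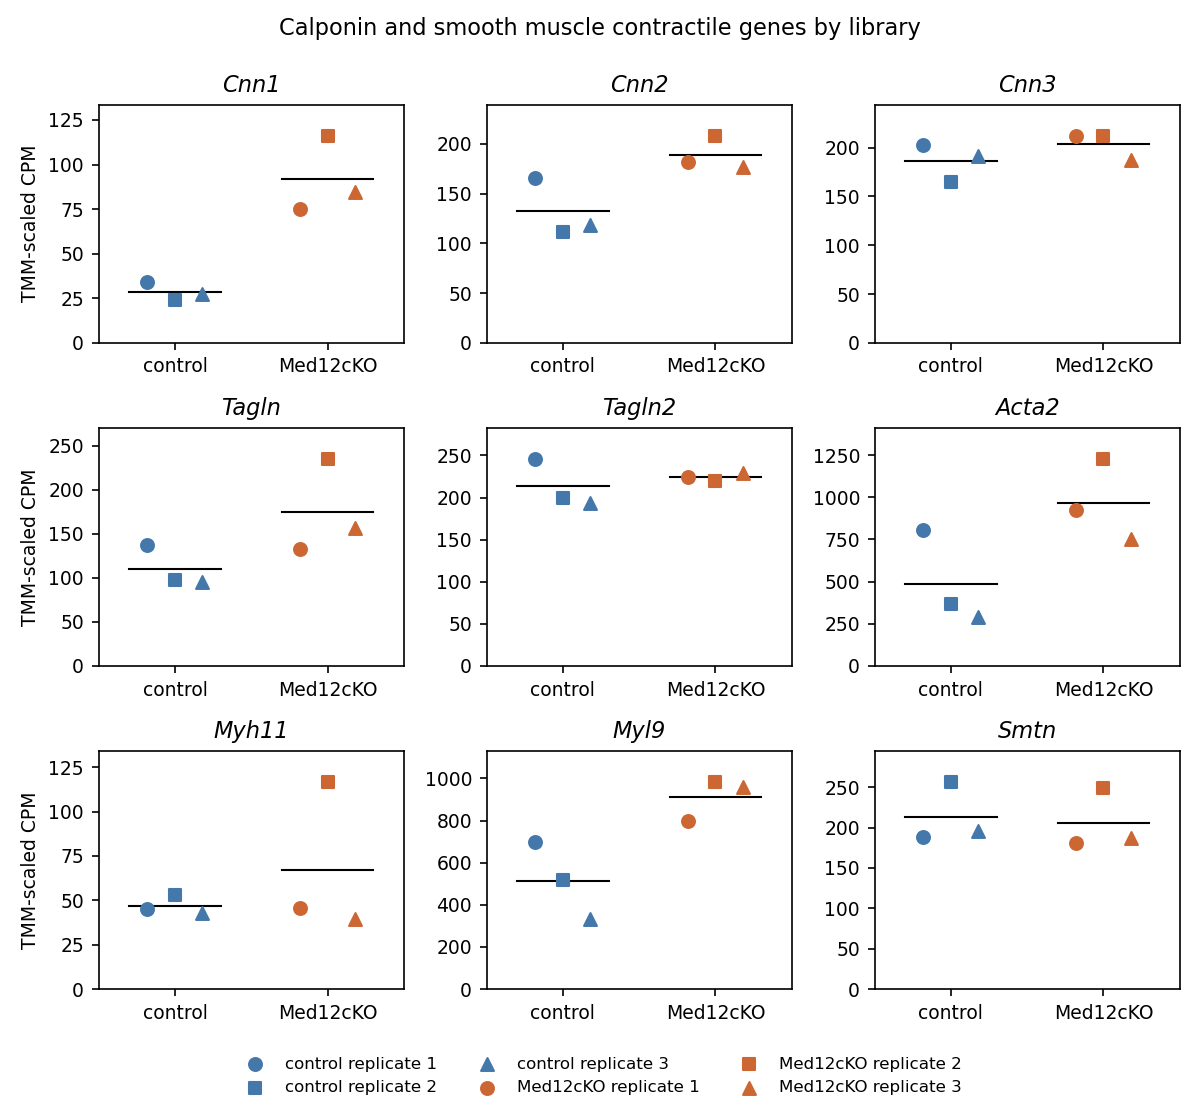
TMM-scaled CPM (vertical axes, each from 0) of the 9 genes in the 3 control libraries (blue) and the 3 Med12cKO libraries (orange), 1 symbol per replicate number, with black lines at the group means. The groups are apart in Cnn1, Cnn2 and Myl9, and the high mean of Myh11 in Med12cKO comes from replicate 2 alone at 117 CPM.

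Per kilobase of exon, the level order in control ventricles ran from Myl9 (443 ± 157 CPM per kb) through Acta2 (222 ± 127) and Tagln2 (102 ± 13.7) down to Cnn1 (10.4 ± 1.92) and Myh11 (6.18 ± 0.70 CPM per kb). Between them lay Cnn3 at 61.2 ± 6.40, Tagln at 55.4 ± 11.8, Cnn2 at 53.7 ± 12.03 and Smtn at 48.8 ± 8.56 CPM per kb, and these 4 overlapped one another. Myl9 and Acta2 also overlapped across the control libraries. In Med12cKO the order was Myl9 (785 ± 87.5 CPM per kb), Acta2 (441 ± 109.6), Tagln2 (108 ± 2.19), Tagln (87.9 ± 26.9), Cnn2 (76.9 ± 6.81), Cnn3 (67.1 ± 4.77), Smtn (46.95 ± 8.59), Cnn1 (33.6 ± 7.89) and Myh11 (8.84 ± 5.66). Cnn1 thus stayed the eighth of the group by level. Its highest Med12cKO library, at 42.5 CPM per kb, lay within the Med12cKO range of Smtn, 41.2 to 56.8.

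Calponins are actin-binding proteins, of which calponin 1 is the form typical of differentiated smooth muscle and calponins 2 and 3 are made in many cell types. Cnn1 (chromosome 9, 22099216 to 22109630, plus strand, GRCm38) measured 34.2, 23.9 and 27.2 CPM in the 3 controls, in the order of their replicate numbers, and 74.9, 116 and 84.7 CPM in Med12cKO. The groups were far apart, and Med12cKO replicate 2 was the highest of them. The ratio of means was 3.23 and the log2 fold change 1.70 (SE 0.20, with an adjusted p of 0.0464 in edgeR). Without any 1 of the controls, or without Med12cKO replicate 3, that adjusted p lay between 0.174 and 0.276 and the log2 fold change between 1.59 and 1.85.

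Cnn2 (chromosome 10, 79988584 to 79996062, plus strand) measured 166, 112 and 119 CPM in control and 182, 208 and 177 CPM in Med12cKO. The groups did not overlap, but control replicate 1 came close to the Med12cKO range. Its log2 fold change was 0.52 (SE 0.16; edgeR adjusted p = 0.806). Cnn3 (chromosome 3, 121426497 to 121458207, plus strand) measured 202, 165 and 191 CPM in control and 212, 212 and 187 CPM in Med12cKO, and the groups overlapped. Its log2 fold change was 0.13 (SE 0.12; edgeR adjusted p = 0.9999). A gene model on the opposite strand shares 17.7% of the exon bases of Cnn3, and the strand setting of the counting is not known here, so its level is uncertain to that extent.

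The make-up of the calponin family shifted with these levels. Cnn1 held 8.52%, 8.07% and 8.19% of the family's summed CPM per kb in the 3 controls and 15.98%, 21.6% and 18.8% in the 3 Med12cKO libraries. The share of Cnn2 was 42.6 ± 3.15% in control and 43.3 ± 0.40% in Med12cKO, while that of Cnn3 was 49.1 ± 3.35% and 37.9 ± 2.72%. The control shares of Cnn1 lay within 0.448 percentage points of each other, although the Cnn1 level itself ran from 23.9 to 34.2 CPM in the same libraries.

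**Figure D2:**
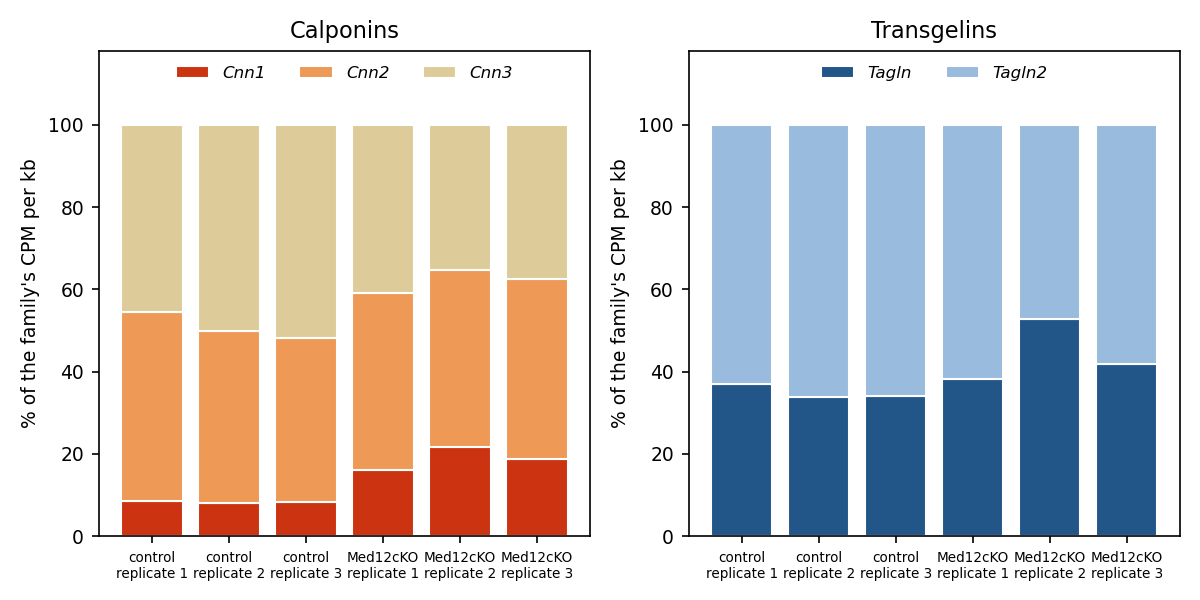
Share of each gene in the summed CPM per kb of the calponins (left) and transgelins (right), in percent, with 1 stacked bar per library. The Cnn1 segment is 8.07% to 8.52% in the 3 controls and 15.98% to 21.6% in the 3 Med12cKO libraries.

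Transgelins are small calponin-related proteins that bind actin. Tagln, also called SM22-alpha, is an early marker of smooth muscle, and Tagln2 is the widely expressed form. Tagln (chromosome 9, 45929619 to 45936058, minus strand) measured 137, 97.8 and 95.3 CPM in control and 133, 235 and 156 CPM in Med12cKO. Med12cKO replicate 1 lay below control replicate 1, so the groups overlapped. The log2 fold change was 0.67 (SE 0.23; edgeR adjusted p = 0.9999), and without Med12cKO replicate 2 it was 0.39. Gene models on the opposite strand, Pcsk7 and Gm48529, share 67.9% of the exon bases of Tagln, so this level is uncertain as well. Tagln2 (chromosome 1, 172500047 to 172507380, plus strand) measured 246, 200 and 194 CPM in control and 224, 220 and 229 CPM in Med12cKO. Its Med12cKO libraries all lay inside the control range, with a log2 fold change of 0.07 (SE 0.13). Tagln held 34.9 ± 1.70% of the transgelins' CPM per kb in control and 44.3 ± 7.63% in Med12cKO.

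Acta2, the actin of vascular smooth muscle (chromosome 19, 34241090 to 34255590, minus strand), measured 807, 365 and 289 CPM in control and 926, 1228 and 752 CPM in Med12cKO. Control replicate 1 exceeded Med12cKO replicate 3, and it was more than 2-fold above the other controls. The log2 fold change was 0.99 (SE 0.41; edgeR adjusted p = 0.9999). It was 1.57 without control replicate 1 and 0.72 without control replicate 3. Cardiac actin Actc1, whose coding sequence is very similar, was also highest in control replicate 1, at 11950 CPM against 6201 and 5062 CPM in control replicates 2 and 3 and 6803 to 8172 CPM in Med12cKO. How reads shared by actin genes were counted was not given, so the level of Acta2 is uncertain.

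Smoothelin (Smtn; chromosome 11, 3517523 to 3540612, minus strand), an actin-binding protein of contractile smooth muscle with a longer form in vessels, measured 188, 257 and 196 CPM in control and 180.5, 249 and 188 CPM in Med12cKO. The groups overlapped almost fully, with replicate 2 the highest in each. The log2 fold change was −0.05 (SE 0.17; edgeR adjusted p = 0.9999), and it was 0.10 without control replicate 2. Opposite-strand gene models share 16.3% of its exon bases.

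On the myosin side, Myl9 (chromosome 2, 156775420 to 156781658, plus strand) measured 696, 519 and 331 CPM in control and 796, 984 and 958 CPM in Med12cKO. The groups did not overlap, and the controls spread 2-fold while the Med12cKO libraries kept close together. The ratio of means was 1.77 and the log2 fold change 0.83 (SE 0.25; edgeR adjusted p = 0.751, DESeq2 adjusted p = 0.0498). Without control replicate 1 it was 1.10, and without control replicate 3 it was 0.59. Myh11, the smooth muscle myosin heavy chain and the marker held most specific for that cell type (chromosome 16, 14194535 to 14291372, minus strand), measured 45.2, 52.9 and 42.7 CPM in control and 45.4, 117 and 39.3 CPM in Med12cKO. Only Med12cKO replicate 2 lay above the controls. The log2 fold change of 0.52 (SE 0.44; adjusted p = 0.9999 in edgeR) became −0.15 without that library. The exons of Myh11 sum to 7.599 kb, which puts it among the longest genes above, those that stood high in Med12cKO replicate 2 and low in Med12cKO replicate 3. Of the 9 genes 7, all but Myh11 and Smtn, are among the shortest (at most 3.042 kb). The median of those shortest genes was low in Med12cKO replicate 2 and high in Med12cKO replicate 3. Of the 7, Cnn1, Cnn2, Tagln, Acta2 and Myl9 were instead highest in Med12cKO replicate 2. Cnn3 was highest in Med12cKO replicate 1, and Tagln2 was highest of the Med12cKO libraries in replicate 3. The part of transcript length in these values was not tested.

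**Figure D3:**
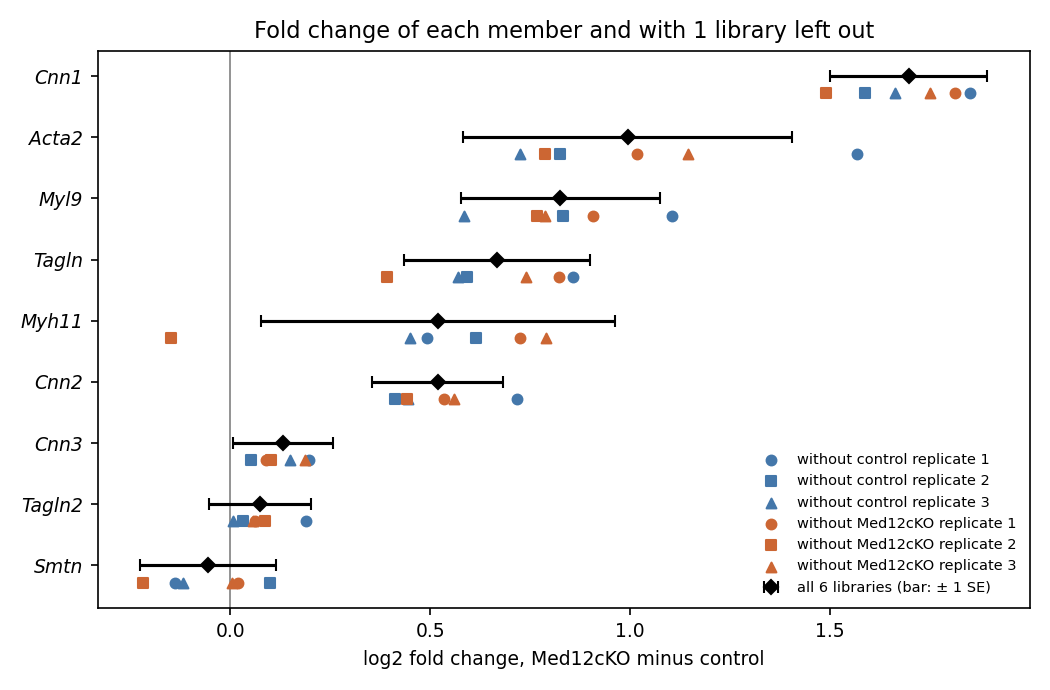
Log2 fold change, Med12cKO minus control (horizontal axis), of the 9 genes in edgeR with all 6 libraries (black diamonds, bars ± 1 SE) and with 1 library left out (coloured symbols below each). Cnn1 stays between 1.49 and 1.85, and Myh11 turns from 0.52 to −0.15 without Med12cKO replicate 2.

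Control replicate 1 was the highest control in 7 of the 9 genes, against 35.7% of all genes tested. Med12cKO replicate 2 was the highest Med12cKO library in 7 of 9, against 34.7% of all genes. The sample descriptions of these 2 libraries open with the letter J and those of the other 4 with the letter I, a letter whose meaning the labels do not give. Within letter I (2 against 2 libraries) the difference in mean log2 CPM, Med12cKO minus control, was 1.62 for Cnn1, 1.36 for Acta2, 1.08 for Myl9, 0.64 for Cnn2 and 0.57 for Tagln. Within letter J (1 against 1) it was 1.75, 0.61, 0.50, 0.33 and 0.77 in the same order. These 5 genes were thus higher in Med12cKO within both letters, as was Cnn3 by a smaller difference. The genes were chosen on the difference between these same libraries, so this split is a description only. Myh11 was at −0.17 within letter I and 1.36 within letter J, Smtn at −0.29 and 0.40, Tagln2 at 0.20 and −0.16, and Cnn3 at 0.17 and 0.07. With the letter as a covariate, edgeR called 3 of the 13629 genes, Cnn1 among them.

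Promoter sequences were compared because SRF and its CArG box are the best-known control of this gene group. RefSeq sequences (GRCm38.p6) matched 7 of the 9 genes, all but Tagln and Myh11, and the 250 bases before each start site were searched on both strands. An exact CArG box occurred in Cnn2 and Myl9, 2 of 7, against 1.47% of 32851 promoters. With up to 1 mismatch in the middle 6 bases it occurred in Cnn2, Acta2 and Myl9, 3 of 7, against 8.59%. The Cnn1 window held neither. The sequences below are those of the 3 genes whose groups did not overlap, without bases that the annotation places in an exon, followed by the pair of near-match sites of Acta2, which lie in bases that GENCODE assigns to an Acta2 exon. Capitals mark the CArG boxes, exact or with 1 mismatch.
Cnn1 (chr9:22099003-22099215, plus strand): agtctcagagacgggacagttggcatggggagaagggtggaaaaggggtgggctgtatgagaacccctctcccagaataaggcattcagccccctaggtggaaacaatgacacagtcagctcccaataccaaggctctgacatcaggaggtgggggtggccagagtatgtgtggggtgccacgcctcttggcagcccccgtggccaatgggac
Cnn2 (chr10:79988350-79988583, plus strand): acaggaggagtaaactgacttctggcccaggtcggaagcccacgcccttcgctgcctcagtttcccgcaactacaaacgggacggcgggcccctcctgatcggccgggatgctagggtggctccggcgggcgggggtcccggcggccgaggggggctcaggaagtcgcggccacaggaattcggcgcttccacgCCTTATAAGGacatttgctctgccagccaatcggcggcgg
Myl9 (chr2:156775214-156775419, plus strand): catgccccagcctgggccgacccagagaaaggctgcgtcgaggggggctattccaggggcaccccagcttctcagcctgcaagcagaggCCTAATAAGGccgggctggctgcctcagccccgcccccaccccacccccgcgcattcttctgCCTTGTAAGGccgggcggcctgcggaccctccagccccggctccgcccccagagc
Acta2 (chr19:34255438-34255467, minus strand): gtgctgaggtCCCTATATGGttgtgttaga
Acta2 (chr19:34255388-34255417, minus strand): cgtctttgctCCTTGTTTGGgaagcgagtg
The exact boxes lay at positions −56 to −47 of Cnn2 and −161 to −152 of Myl9, counted back from the RefSeq start site. Myl9 held a second box with 1 mismatch at −99 to −90, and those of Acta2 lay at −84 to −75 and −34 to −25. The element CATTCC (or GGAATG on the other strand), the core bound by TEAD factors, occurred in Tagln2, Acta2 and Smtn, 3 of 7, against 12.6% of promoters. It did not overlap the CArG boxes. A match describes these letters only, and binding was not measured.

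Related genes were read from 4 lists of the contractile apparatus and its control. edgeR called 0 of their 56 tested genes over all genes tested, 7 had an unadjusted p under 0.05, all higher in Med12cKO (3.78% of all genes in either direction, 2.16% higher), and DESeq2 called 3 higher and 0 lower (0.508% of genes in either direction and 0.25% higher in DESeq2). Where the text gives groups of a gene as not overlapping, 8.23% of all genes were so in either direction and 4.59% higher. In the thin filament list, 2 of 13 tested genes had an unadjusted p under 0.05, with a list median of 0.10. The tropomyosin Tpm2, which lies along actin filaments, measured 180.3, 135 and 125 CPM in control and 304, 337 and 277 CPM in Med12cKO (log2 fold change 1.06, SE 0.16; edgeR adjusted p = 0.126, DESeq2 2.1e-07). The skeletal actin Acta1 measured 56.05, 51.2 and 39.6 CPM in control and 232, 86.9 and 109 CPM in Med12cKO (1.54, SE 0.40; edgeR adjusted p = 0.709, DESeq2 2.5e-04). In both genes every Med12cKO library was above every control, and Acta1 was at 0.99 without Med12cKO replicate 1. Med12cKO replicate 1, where Acta1 was highest, also had 43.4 CPM of the skeletal light chain Mylpf against 4.83 to 7.30 CPM elsewhere. Of the 10 tested skeletal muscle markers 9 had a positive log2 fold change (52.2% of all genes tested), with a median of 1.45. All of them but Ckm were highest in Med12cKO replicate 1. In Med12cKO replicate 3, Mylpf, Myh8, Actn3 and Neb lay within the control range and Myh3, Tnni2 and Tnnc2 below it. Tnnt3, Mybpc1 and Ckm lay above it in that library. The slow skeletal gene Mybpc1 measured 1.61, 2.57 and 1.53 CPM in control and 21.2, 4.64 and 3.77 CPM in Med12cKO (2.36, SE 0.75; edgeR adjusted p = 0.977, DESeq2 0.033). The embryonic and perinatal myosins Myh3 and Myh8 were likewise highest in Med12cKO replicate 1, at 8.12 and 68.9 CPM. The list summed to 2106 to 2744 CPM in control and 1826 to 2976 CPM in Med12cKO, most of it from Ckm, which heart muscle also expresses. The part of skeletal muscle RNA was not tested. The neuronal transgelin Tagln3 (−0.65, SE 0.37) and the actin-nucleating leiomodin Lmod1 (0.32, SE 0.21) were the next by p. Every Med12cKO library of Tagln3 was below every control, but on few counts, 13, 13 and 12 in control and 8, 7 and 8 in Med12cKO.

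Among 14 genes for myosin and its regulators 1 had an unadjusted p under 0.05, and the list median was 0.07. It was Myl6, the essential light chain that pairs with Myl9 on smooth muscle and non-muscle myosin. Myl6 measured 129.5, 105 and 108 CPM in control and 142, 166 and 182 CPM in Med12cKO, without overlap (log2 fold change 0.52, SE 0.14; edgeR adjusted p = 0.529). The non-muscle heavy chain Myh10 had a log2 fold change of 0.45 (SE 0.22), the regulatory light chain Myl12a 0.15 (SE 0.18) and the kinase Prkg1 −0.10 (SE 0.16). Among 14 anchorage genes, which tie filaments to dense bodies and adhesions, 13 had a positive log2 fold change and 4 an unadjusted p under 0.05, with a list median of 0.19. The LIM protein Csrp1 measured 313, 242 and 255 CPM in control and 362, 412 and 388 CPM in Med12cKO (0.52, SE 0.14; edgeR adjusted p = 0.529, DESeq2 0.0343). Pdlim7, a PDZ and LIM protein, went with a log2 fold change of 0.49 (SE 0.13), the intermediate filament gene Synm with 0.89 (SE 0.27) and the actin crosslinker Actn1 with 0.34 (SE 0.14), each without overlap of the groups. Without Med12cKO replicate 2, Synm was at 0.57, Actn1 at 0.21 and Myh10 at 0.12.

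Among 15 upstream regulators none had an unadjusted p under 0.05 in edgeR, DESeq2 called none, and the list median was −0.01. Srf itself measured 211, 181 and 166 CPM in control and 205, 249 and 205 CPM in Med12cKO, and the groups overlapped (log2 fold change 0.24, SE 0.14; edgeR adjusted p = 0.9999). The SRF partner Elk1 stood at 0.20 (SE 0.14), the growth factor gene Tgfb2 at 0.21 (SE 0.16) and Klf5, a regulator of smooth muscle growth, at −0.41 (SE 0.39). Every Med12cKO library of Klf5 was below every control in CPM, but this rests on few counts. They were 10, 12 and 13 in control and 10, 9 and 6 in Med12cKO.

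**Figure D4:**
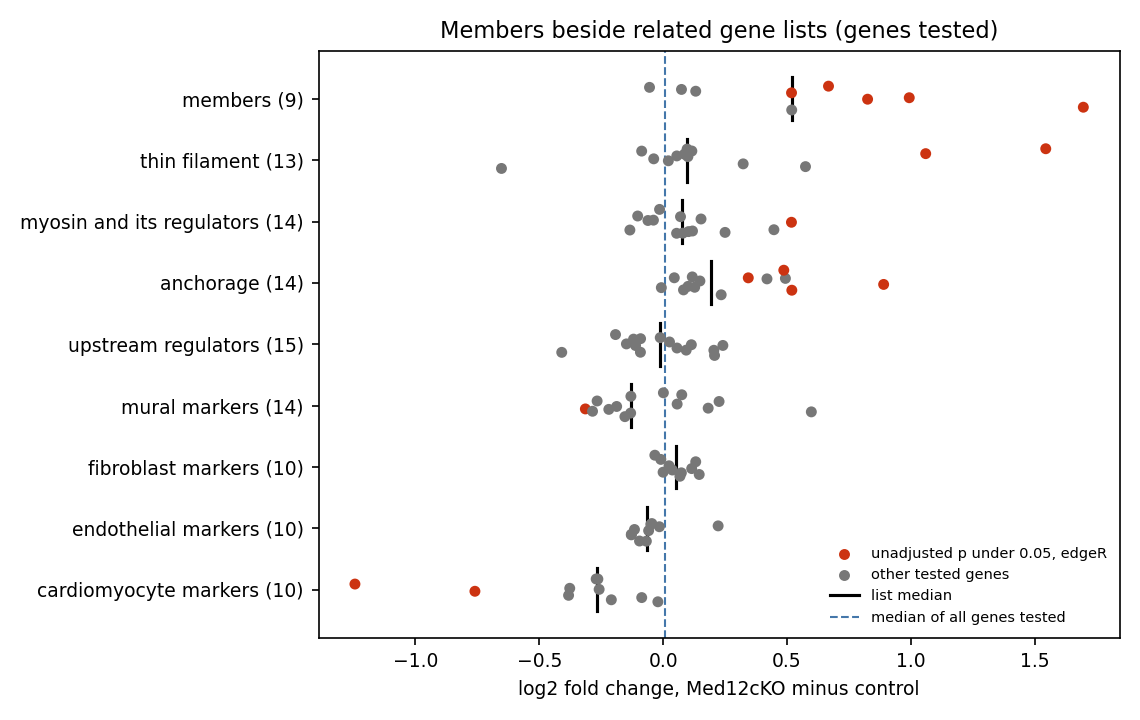
Log2 fold change, Med12cKO minus control (horizontal axis), of every tested gene in the 9 genes described here (members), in 4 lists of related genes and in 4 lists of cell type markers, with the number tested in brackets. Red points had an unadjusted p under 0.05 in edgeR, black bars are list medians and the dashed line is the median of all genes. The members' median is 0.52, but they were chosen on this contrast, so nothing is read from its distance to the other lists. Marker medians are −0.13 (mural), 0.05 (fibroblast), −0.06 (endothelial) and −0.27 (cardiomyocyte). The epicardial (−0.22), skeletal muscle (1.45) and T cell lists are not drawn. The tested skeletal muscle markers other than Ckm were highest in Med12cKO replicate 1.

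Markers of the cell types that could carry these transcripts were read the same way. The 14 pericyte and vascular smooth muscle markers outside the group, all detected, summed to 1176 to 1352 CPM in control and 1086 to 1414 CPM in Med12cKO, so the ranges overlapped. Of these 6 of 14 had a positive log2 fold change, with a median of −0.13. Kcnj8, a pericyte potassium channel, had an unadjusted p under 0.05, lower in Med12cKO (−0.31, SE 0.14; edgeR adjusted p = 0.9999). Its groups did not overlap. In the other direction, Mcam had every Med12cKO library above every control (0.23, SE 0.12), and Kcnmb1 had the largest positive log2 fold change (0.60, SE 0.39). The groups of Kcnmb1 overlapped, on few counts, 26, 23 and 33 in control and 32, 67 and 22 in Med12cKO. The list mixes markers of both cell types, so smooth muscle alone is not read from it. The sum over the 9 contractile genes was 1484 to 2522 CPM in control and 2772 to 3568 CPM in Med12cKO. These 9 genes were chosen on this contrast, so nothing is read from their sum. Its largest parts were Acta2 and Myl9, with means of 487 and 515 CPM in control and 969 and 913 CPM in Med12cKO. Fibroblast markers summed to 9980 to 11210 CPM and 8367 to 12850 CPM, endothelial markers to 1976 to 2108 CPM and 1822 to 2028 CPM, and epicardial markers to 306.5 to 396 CPM and 221 to 394 CPM. Cardiomyocyte markers summed to 46040 to 58850 CPM in control and 33960 to 45110 CPM in Med12cKO, without overlap, and 0 of 10 had a positive log2 fold change. Taken gene by gene, the groups were apart in 2 of the 10, Myh7 (−1.24, SE 0.39) and Pln (−0.76, SE 0.16), and overlapped in the others. In Med12cKO replicate 3, Tnnt2 (7735 CPM), Tnni3 (2520 CPM), Tnni1 (2608 CPM), Myl2 (7379 CPM), Myl3 (3980 CPM), Mybpc3 (4100 CPM) and Ttn (2418 CPM) lay within the control range. Myh6 (8725 CPM), Myh7 (2475 CPM) and Pln (3173 CPM) lay below it in that library. edgeR called none of the markers in these 5 lists over all genes. Of their 52 tested genes 3 had an unadjusted p under 0.05, all lower (3.78% of all genes in either direction, 1.61% lower), and DESeq2 called 1, lower (0.508% in either direction). The part of cell make-up in the levels of the 9 genes was not tested.

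By likeness of profile, 10782 other genes with an average log2 CPM of at least 3 were compared with Cnn1 by the root mean square difference of their log2 ratios to the control mean over the 6 libraries. The 5 nearest were Slc1a1 (0.28), a glutamate transporter gene, Nkd2 (0.30), an inhibitor of Wnt signalling, AI414108 (0.38), Tpm2 (0.45) and AW551984 (0.46). Slc1a1 measured 6.67, 5.24 and 5.26 CPM in control and 12.6, 18.4 and 13.1 CPM in Med12cKO, with replicate 2 the highest there. The rule picked these genes for a profile like that of Cnn1, so nothing is read from their likeness to it. A gene model on the opposite strand shares 31.9% of the exon bases of Slc1a1. Within the group the nearest to Cnn1 were Acta2 (0.61), Myl9 (0.66) and Tagln (0.73), and the farthest was Smtn (1.25).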

How the data were processed

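RNA-seq covered 3 control and 3 Med12cKO ventricle libraries, grouped by sample title. The deposited values are raw counts per gene symbol. Per the submitters' processing notes, TopHat2 2.0.0, featureCounts, edgeR 3.14.0 and GRCm38 (mm10) were used. No annotation or strand setting is given in the sources used here. The labels do not tie libraries to separate animals, so a p-value reflects only the spread among these libraries, which may be technical. Within a group, pairs of libraries differed beyond sampling noise, with a chi-square of 14.5 to 29.3 per degree of freedom.

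The 9 genes, the lists and the tests were chosen with earlier results of these data known. The comparison used edgeR 4.0.16 (R 4.3.3) with TMM, filterByExpr (minimum count 10, minimum total 15), robust quasi-likelihood F tests and Benjamini-Hochberg adjustment over 13629 genes at 0.05. Each SE was taken as the log2 fold change over the root of F. Named genes were the 9 members, Med12, the 4 genes of each pathway list with the smallest p and the 5 nearest to Cnn1. Other genes were named as markers or, for Actc1, Ppp1r12b, Myocd, Mylpf, Mybpc1, Myh3 and Myh8, after their values were seen. The other markers named from the lists were also picked with their values seen. Exon lengths and positions came from GENCODE M21 (GRCm38), and CPM per kb divides by the union of exons. AI414108 had no match there. Alternatives were DESeq2 1.42.0 on the same genes, limma-voom (limma 3.58.1), other scaling and filters, the replicate number or description letter as a covariate, subsets, and each library left out. The fits were tested on simulated data. Lists of skeletal muscle and T cell markers were also read. The 3 counts that a count of 0 allows correspond to 0.286 to 0.345 CPM, for counting error only.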

Additional observations from a re-analysis of the deposited data

How the results depend on the processing

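edgeR called 3 genes in all and 1 of the 9 members, Cnn1. Over all genes DESeq2 called 65, the 4 libraries with letter I gave 1, and leaving out 1 library gave 1 to 3. Of the members, DESeq2 called 2 (Cnn1 and Myl9), while limma-voom, edgeR with the size factors of DESeq2, the replicate number as a block and the letter I libraries alone each called 0, and leaving out 1 library gave 0 to 1. In the 8 fits with 0 members called, 3 to 5 of the 9 had an unadjusted p under 0.05, as had 331 to 1071 of all genes, and nothing is read from this since the members were chosen on this contrast. Cnn1 had an adjusted p of 0.0703 in limma-voom, 0.0505 with DESeq2's size factors, 0.175 with the replicate block and 0.0591 in the letter I libraries, and its log2 fold change stayed between 1.49 and 1.85 over all 17 alternatives. Myh11 turned to −0.16 in the letter I libraries, and with 1 library left out it ran from −0.15 (without Med12cKO replicate 2) to 0.79. Smtn ran from −0.22 to 0.10 and was positive without control replicate 2, at 0.019 without Med12cKO replicate 1 and at 0.0049 without Med12cKO replicate 3. The other 7 members kept their direction in all 17 alternatives. With the libraries with T cell transcripts left out, or given a covariate, 1 member was called. The cause of these changes was not tested.

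Whether the replicate numbers pair the libraries is not known. Deviations of same-numbered libraries from their group means correlated at −0.33, 0.46 and −0.36 across genes. Those of control replicate 3 and Med12cKO replicate 1, the libraries with T cell transcripts, correlated at 0.727. With 3 libraries per group these values cannot decide on pairing. The replicate block left 2 genes called in all. Other scalings moved the median of all genes by at most 0.03 on the log2 scale. With 3 libraries per group, depth limited the members little, since the lowest of their counts in a library was 251.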

Other observations

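Ppp1r12b, which encodes a targeting subunit of the phosphatase that acts on the myosin light chain in muscle, split the libraries in another way than the groups. It measured 67.4 CPM in control replicate 2 and 73.8 CPM in Med12cKO replicate 2, against 2.69 to 3.54 CPM in the other 4 libraries. Myocd, the SRF cofactor of heart and smooth muscle, was highest in the same pair, at 76.6 and 79.1 CPM against 28.8 to 43.04 CPM elsewhere. Smtn was also highest there, at 257 and 249 CPM against 180.5 to 196 CPM. These genes were singled out after their values were seen. Control replicate 2 and Med12cKO replicate 2 were also the only libraries where the longest genes had a positive median log2 deviation, 0.076 and 0.16. The part of transcript length in the levels of Ppp1r12b, Myocd and Smtn was not tested.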
